A study of Oreochromis niloticus with 24 samples.

Results

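The genes described here encode proteins with known roles, mainly in mammals, in the firing of cells and in contact between neighbours. They are 2 gene models of kcna4 (LOC102076326 and LOC100694964), kcnh6a (LOC100702614), kcnmb4, gjd2 and unc80. Only their RNA levels in pituitary gonadotrophs are described. They were taken by name from the tables of sorted tilapia cells, with earlier results of these data known, and all 6 of them are among the 2932 genes that the male or the female table holds. All 6 are in the male table, and 5 are in the female table, which does not list kcnmb4. The cells came from mature male and female Nile tilapia (Lake Manzala strain), offspring of FSH:GFP and LH:RFP parents, so that every fish carried a green label in its FSH cells and a red one in its LH cells. Pituitaries of 1 sex were pooled, dispersed with trypsin and sorted into RFP-positive LH cells, GFP-positive FSH cells and a negative fraction without either label. This was done 4 times for each sex, which gives 4 libraries for every fraction of a sex and 24 in all. Libraries of a sex with the same replicate number were taken as 1 sort, which the sample titles do not state. The negative fraction holds all unlabelled pituitary cells, the label follows a transgene and not the hormone itself, and cells with both labels were not analysed here.

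Pituitary endocrine cells fire action potentials, and the calcium that enters with them drives hormone release. Voltage-gated potassium channels end each action potential and set the interval to the next. The channel encoded by kcna4 carries a rapidly inactivating, A-type current, and that encoded by kcnh6 belongs to the erg family, whose currents hold the resting potential of several endocrine cells. The BK channel opens with calcium and depolarization together, and kcnmb4 encodes one of its auxiliary beta subunits. The product of unc80 is a scaffold of the sodium leak channel NALCN, whose steady inward current brings a cell towards threshold. The product of gjd2 is a connexin that forms gap junctions, the direct electrical contacts between neighbouring cells. These roles are known mainly from mammals.

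Levels are given in normalized reads (NR), that is, read counts scaled by one size factor for each library. The males and females were normalized apart, so levels are compared within a sex only, and since gene lengths were not taken into account, levels of different genes are not compared. The libraries held 69091 to 2004647 reads on the genes of the tables, fewest in the female negative fraction, and the 6 genes were covered by 3 (LOC100694964, male and female negative fractions) to 8742 (unc80, male FSH) reads in a library. A level of 3 reads equals 1.22 to 7.21 NR and was taken as the limit of detection, for counting error only. The sort followed the beta subunit genes. In males fshb was 194 ± 117 NR in LH libraries, 48574 ± 20718 NR in FSH libraries and 106 ± 62.8 NR in the negative libraries (SD, n = 4 each), and lhb (LOC100534501) was 5653 ± 2989 NR in LH, 20.3 ± 8.86 NR in FSH and 15.7 ± 13.9 NR in negative libraries. The shared subunit gene cga was above the negative fraction in FSH cells (log2 fold change 4.42 in males and 3.68 in females). In LH cells this value was 2.43 in males and 0.45 in females (adjusted p from limma 0.266). The paper reports pomc and somatolactin at or slightly above the negative level in LH cells, and far below it in FSH cells. The part of other cells in the LH fraction was not tested. Both tables list only genes that the authors had found enriched in LH or FSH cells over the negative fraction. A value against the negative fraction thus describes genes chosen for that contrast. LH and FSH cells were not compared directly in that choice, but their contrast is not free of it. A gene enriched in 1 cell type alone entered through that type, which favours a difference in its direction. By the values below this holds for kcnmb4 (male LH cells) and, in female FSH cells, for both kcna4 models, kcnh6a and unc80. In bulk libraries, fewer cells of a type and less RNA per cell cannot be told apart.

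The 6 genes fell into 3 patterns, with unc80 in part between the first and the last. Both kcna4 models and kcnh6a were lower in LH than in FSH cells in males and females. In males kcnmb4 was higher in LH cells and lowest in FSH cells. The gap junction gene gjd2 was above the negative fraction in both cell types, with LH and FSH libraries that overlapped in both sexes. In males unc80 was also above the negative fraction in both cell types, while in females it was near the negative level in LH cells. All 4 LH libraries of unc80 lay below all 4 FSH libraries in each sex (log2 fold change -0.57 in males and -1.10 in females). This difference was called in females alone, and not with TMM.

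**Figure D1:**
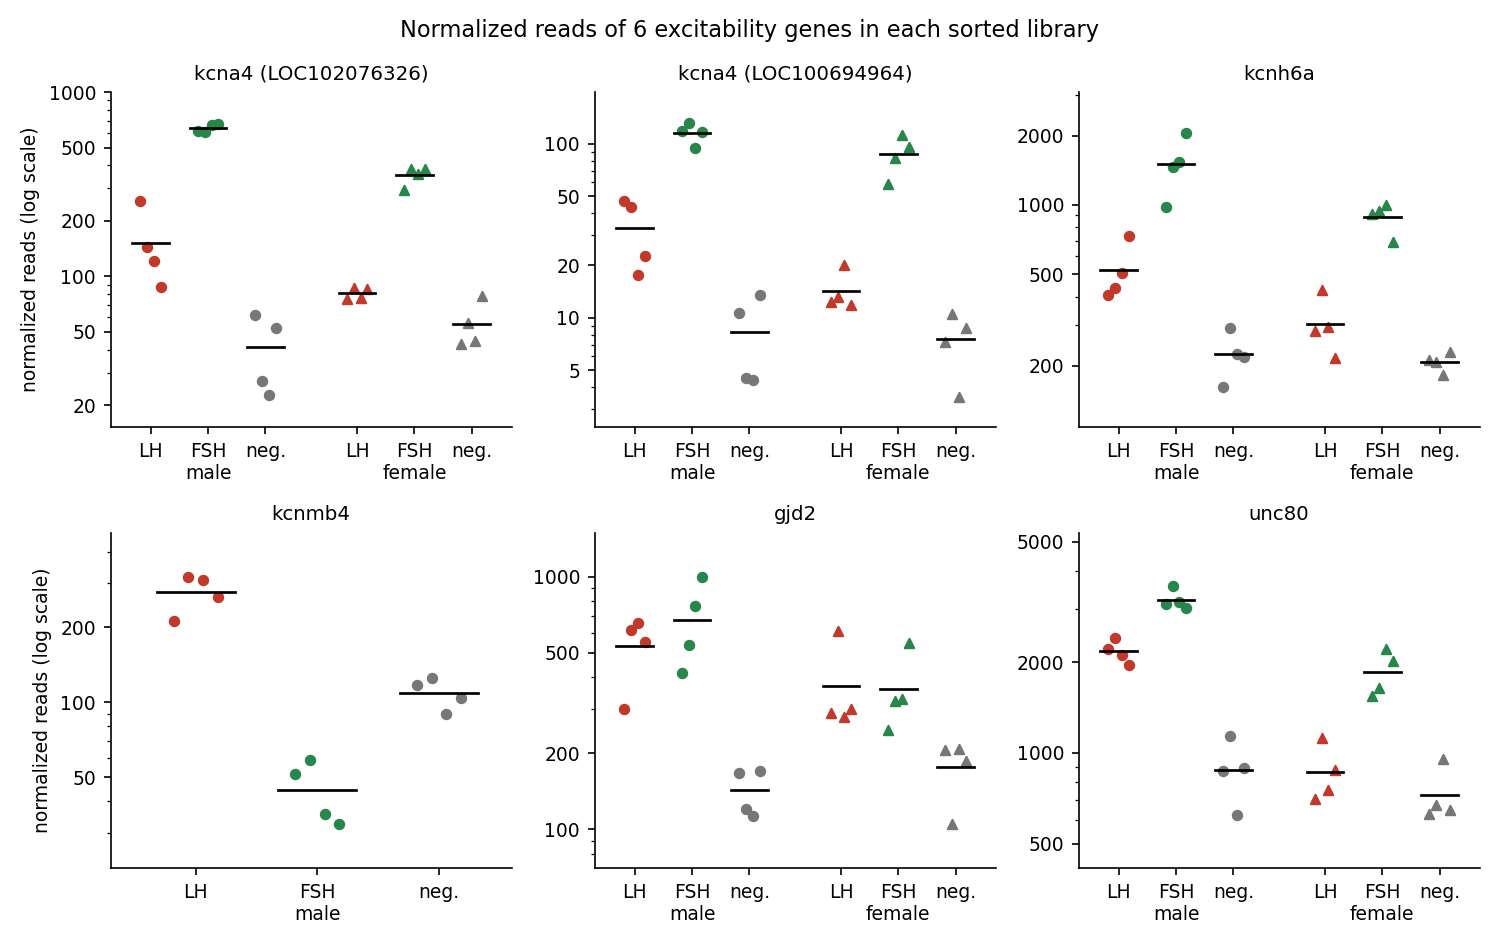
Normalized reads (log scale) of the 6 genes in each library, by fraction (LH, FSH, negative) and sex (circles male, triangles female), with a bar at the mean of 4 libraries. The FSH libraries are highest for both kcna4 models and kcnh6a, the LH libraries for kcnmb4 (male table only), and the LH and FSH libraries of gjd2 overlap.

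A gene was called when its log2 fold change passed 1 in size and its p-value, from limma with Benjamini-Hochberg (BH) adjustment over the table of that sex, was below 0.05. For male LH cells against the negative fraction all 6 genes were called higher, beside 51.2% of all 2392 genes of that table. For male FSH cells 5 were called higher, beside 75.8%, and kcnmb4 was called lower, beside 7.53%. For female LH cells 1 of 5 was called higher, beside 28.5% of 1849 genes, and for female FSH cells all 5 were, beside 69.7%. All 4 LH libraries lay above all 4 negative ones for 6 of 6 genes in males and for 2 of 5 in females, beside 55% and 28.2% of the tables, and all 4 FSH libraries lay above for 5 of 6 and 5 of 5, beside 72.1% and 65.9%, and below for kcnmb4, beside 6.81%. These shares show how strongly the tables are made of enriched genes, and nothing is read from the counts against the negative fraction. In LH against FSH cells 1 of 6 was called higher and 3 lower in males, beside 14.9% and 25.6% of the table. In females 4 of 5 were called lower, beside 47.6%, and gjd2 was not called. All 4 LH libraries lay below all 4 FSH ones for 4 of 6 genes in males, beside 37.2% of the table, and above for 1, beside 14.7%, and in females they lay below for 4 of 5, beside 54.7%. The median log2 fold change of LH against FSH cells was -1.05 over the 6 genes and -0.54 over all genes in males, and -1.56 over the 5 genes and -0.96 over all genes in females. The 2 kcna4 models adjoin and may be parts of 1 gene. These counts and medians would then hold that gene 2 times.

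The scaling of the libraries bears on this contrast. With factors computed from the tables' own genes by the TMM method (trimmed mean of M-values), in place of the authors' size factors, the median of all genes in LH against FSH cells moved up by 0.39 in males and by 0.92 in females on the log2 scale. TMM takes most genes as unchanged, whereas these tables hold genes chosen for enrichment, more of them called in FSH than in LH cells. It thus draws the typical gene of a table towards no difference. Values with TMM show how far the scaling matters, and which scaling is right was not tested. The calls over the whole male table were then 435 higher and 354 lower, against 356 higher and 613 lower with the authors' factors, and those over the 1849 female genes 510 higher and 283 lower, against 453 and 880. The 4 male calls and those of both kcna4 models in females held under either scaling. In females kcnh6a (-0.62) and unc80 (-0.16) were below the fold limit with TMM.

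**Figure D2:**
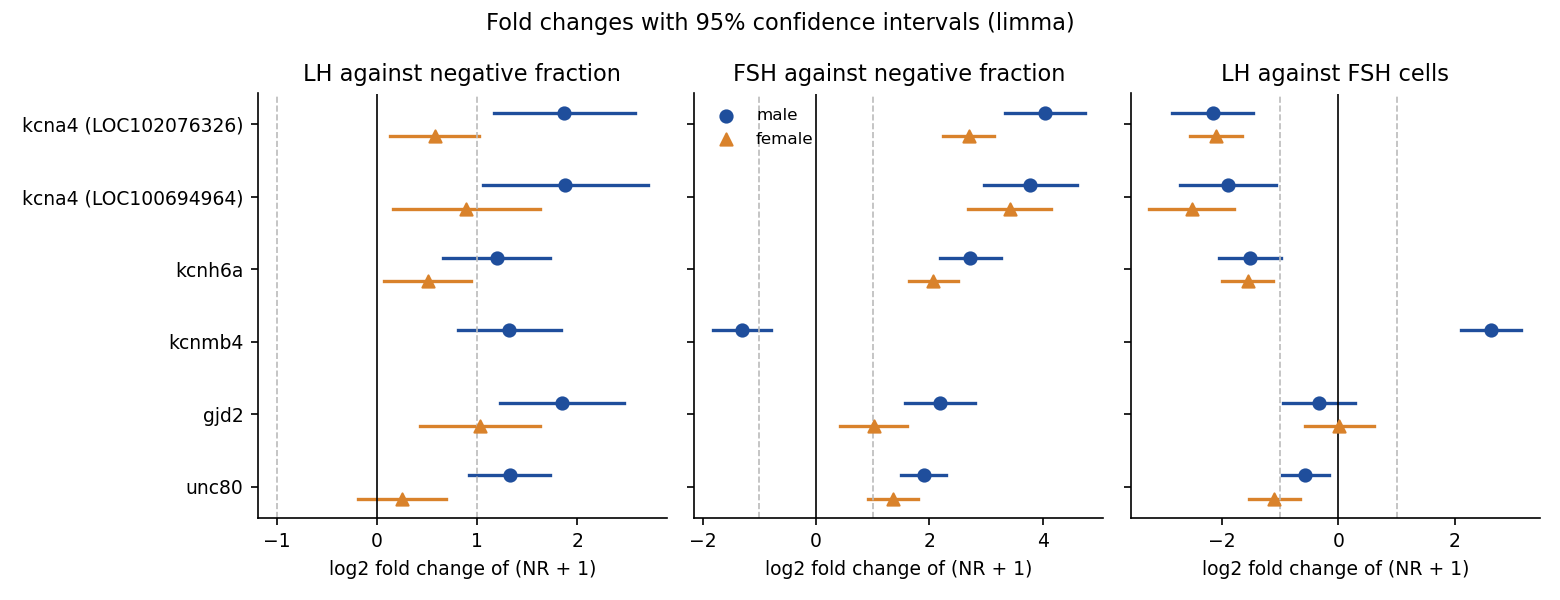
Log2 fold changes of NR + 1 with 95% confidence intervals from limma for the 6 genes, in LH against negative, FSH against negative and LH against FSH cells (circles male, triangles female, dashed lines at a log2 fold change of 1 in either direction). In LH against FSH cells both kcna4 models and kcnh6a lie below -1 in each sex, kcnmb4 lies at 2.63 and the intervals of gjd2 include 0.

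The first kcna4 model, LOC102076326, had 257.3, 144.7, 120.8 and 87.8 NR in male LH libraries, 614.0, 610.5, 658.5 and 666.7 NR in FSH libraries, and 62.1, 27.1, 22.8 and 52.7 NR in the negative libraries. The fractions did not overlap, and the FSH libraries were the most alike, with a coefficient of variation of 4.59%, whereas the LH libraries spread widely. In females the levels were 75.0, 86.6, 76.5 and 85.7 NR in LH libraries, 295.7, 384.3, 357.9 and 382.1 NR in FSH libraries, and 42.9, 56.0, 44.7 and 78.0 NR in the negative libraries. Female LH and FSH libraries lay well apart, while one negative library reached into the LH range. In LH against FSH cells the log2 fold change was -2.17 (SE 0.33, BH-adjusted p from limma 4.75e-05) in males and -2.11 (SE 0.21, adjusted p 3.82e-08) in females, with all 4 LH libraries below all 4 FSH libraries in each sex.

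The second kcna4 model, LOC100694964, had 46.6, 43.5, 17.7 and 22.6 NR in male LH libraries, 118.9, 132.2, 94.6 and 117.5 NR in FSH libraries, and 10.7, 4.5, 4.4 and 13.5 NR in the negative libraries. It took the same order of fractions without overlap. In females it had 12.4, 13.1, 20.0 and 11.8 NR in LH libraries, 59.0, 82.4, 112.9 and 96.0 NR in FSH libraries, and 7.3, 10.5, 3.5 and 8.8 NR in the negative libraries. Here too the 3 fractions did not overlap, but LH and negative libraries were only narrowly apart (lowest LH 11.8 NR, highest negative 10.5 NR). The female negative libraries held 3 to 8 reads of this model, in or near the range of the detection limit. For female LH cells against the negative fraction the log2 fold change stayed inside the fold limit for both models (0.58 for LOC102076326 and 0.90 for LOC100694964, adjusted p from limma 0.0396 and 0.049), and that of LOC100694964 was 1.07 and passed both limits without negative replicate 2 (adjusted p 0.0335). The log2 fold change of LH against FSH cells was -1.90 (SE 0.39, adjusted p from limma 0.000666) in males and -2.52 (SE 0.35, adjusted p 2.34e-06) in females.

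Both models lie beside the gene of the FSH beta subunit. In the annotation of O_niloticus_UMD_NMBU, fshb spans LG1:10247789-10250820 (linkage group 1), LOC100694964 spans LG1:10261103-10264184 and LOC102076326 spans LG1:10264192-10317934. LOC100694964 begins 10.3 kb past fshb, and only 7 bases separate it from LOC102076326. Of 15 annotated genes within 200 kb of fshb, 4 are in either table: fshb itself, both kcna4 models, and in the female table alone fibinb, 102 kb away on the other side. The last was higher in LH than in FSH cells (log2 fold change 4.25, SE 0.56, adjusted p from limma 1.1e-06), opposite in sign to fshb and both kcna4 models. Against the negative fraction fibinb was at 1.31 in LH cells and -2.94 in FSH cells. By these values it entered through LH cells alone, so the choice of genes favours this direction, and nothing is read from the sign. The other 11 genes, among them arl14ep, nr1h3 and madd, are in neither table and were not analysed here.

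**Figure D3:**
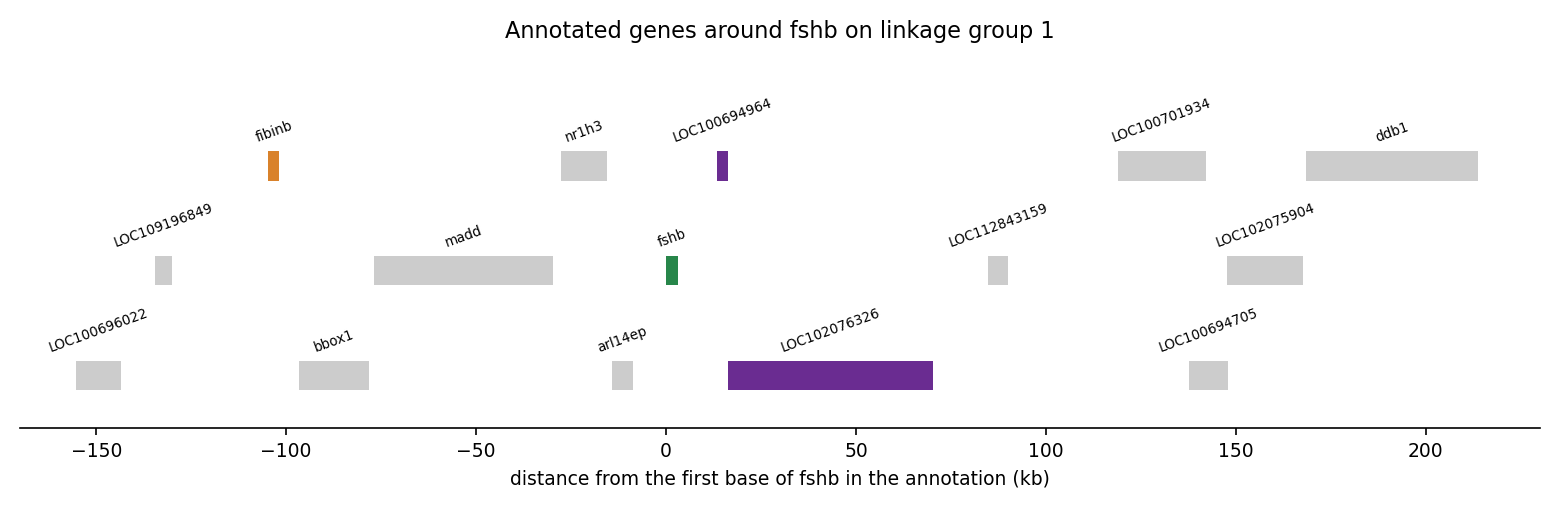
Annotated genes within 200 kb of fshb, drawn as boxes by their distance in kb from the first base of fshb (rows only separate the names). Green marks fshb, purple the 2 kcna4 models, orange fibinb, which is in the female table, and grey the 11 genes that are in neither table.

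The kcna4 models and fshb had the same sign in LH against FSH cells but not the same size. Within a sort, the LH level of LOC102076326 was 13.2 to 41.9% of the FSH level in males and 21.4 to 25.4% in females, and that of LOC100694964 was 18.7 to 39.2% and 12.3 to 21.0%. For fshb it was 0.280 to 0.511% in males and 0.0781 to 0.154% in females. In every sort the level in LH cells relative to FSH cells was thus far larger for either kcna4 model than for fshb.

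Because the 2 models adjoin, the split of reads between them was compared across fractions. LOC100694964 took 17.5% of the reads of the pair in male LH cells (95 of 544, Wilson 95% interval 14.5 to 20.9), 16.2% in FSH cells (15.05 to 17.37) and 16.8% in the negative fraction (30 of 179). In females it took 14.2% in LH cells (11.03 to 18.21), 18.9% in FSH cells (17.1 to 20.9) and 11.7% in the negative fraction (25 of 213). In females the interval of the negative fraction was 8.08 to 16.8%, wholly below that of FSH cells. The other intervals overlapped within a sex, and all of them cover counting error only. Over the 12 libraries of a sex the log2 levels of the 2 models correlated at r = 0.98 in males and 0.97 in females, and LOC102076326 ranked first in likeness to LOC100694964, by the smaller of the male and female r among 730 genes with a mean of at least 50 NR. It was followed by atp8a1 (r = 0.97 in males and 0.97 in females), a lipid flippase gene, and pde2a (0.97 and 0.98), a gene of a cyclic nucleotide phosphodiesterase, both with a higher r than LOC102076326 (0.970) in females. For LOC102076326 the most alike were LOC102076330 (r = 0.99 and 0.98), atp8a1 (0.98 and 0.98) and rasgrp1 (0.97 and 0.97), a gene of a Ras activator. These correlations describe libraries that share their sorts and differ mostly by fraction.

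The erg-type channel gene kcnh6a lies at LG4:28898658-28927195. It had 408.5, 436.8, 504.0 and 730.3 NR in male LH libraries, 982.8, 1464.3, 1530.7 and 2060.1 NR in FSH libraries, and 162.8, 291.0, 225.8 and 218.7 NR in the negative libraries. Male fractions were again separate, with FSH above LH and LH above negative. Female LH cells had 282.5, 428.9, 295.2 and 216.0 NR, FSH cells 913.8, 943.8, 996.8 and 689.0 NR and the negative fraction 212.8, 208.3, 183.5 and 229.6 NR, so that LH and negative libraries overlapped while the FSH libraries stood above both. The log2 fold change of LH against FSH cells was -1.53 (SE 0.25, adjusted p from limma 0.000102) in males and -1.56 (SE 0.21, adjusted p 1.44e-06) in females. Within a sort LH cells had 29.8 to 41.6% of the FSH level in males and 29.6 to 45.4% in females. The genes most like it over the libraries were LOC100710142 (r = 0.96 in males and 0.98 in females), tbc1d30 (0.97 and 0.96) and sgsm1b (0.96 and 0.97), the last a member of a family of Rab and Rap regulators.

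The FSH pattern of these potassium channel genes was shared by kcnab1, the gene of a cytoplasmic beta subunit that binds channels of the kcna family. It had 14.1 ± 11.1 NR in male LH libraries, 151 ± 57.7 NR in FSH libraries and 8.34 ± 3.52 NR in the negative libraries (SD, n = 4 each). Female levels were 3.44 ± 1.76 NR in LH, 81.6 ± 9.09 NR in FSH and 4.06 ± 0.579 NR in negative libraries. Its log2 fold change in LH against FSH cells was -3.50 in males and -4.30 in females (adjusted p from limma below the limit in both, also with TMM). For female LH cells the NR level is within the range of the detection limit. In both sexes kcnab1 was called higher than the negative fraction in FSH cells and not in LH cells. The choice of genes thus favours this direction.

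A listed glia marker, glula, the gene of glutamine synthetase, moved the same way as the kcna4 models and kcnh6a. It had 260 to 354 NR in male LH libraries, 501 to 1231 NR in FSH libraries and 153 to 237 NR in the negative libraries, and in females 100.2 to 161 NR in LH, 243 to 370.3 NR in FSH and 79.988 to 133 NR in negative libraries. It was called lower in LH than in FSH cells in both sexes (-1.53 and -1.15). The other glia marker of the tables, fabp7a, is in the female table alone and was called higher in LH than in FSH cells (2.65). Their part in the values of these potassium channel genes was not tested.

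In males kcnmb4 showed the opposite order. It had 212.3, 318.8, 309.3 and 264.8 NR in LH libraries, 51.5, 58.8, 35.6 and 32.4 NR in FSH libraries, and 117.8, 125.1, 89.6 and 104.3 NR in the negative libraries. No library of a fraction overlapped with another fraction. The log2 fold change was 2.63 in LH against FSH cells (SE 0.24, 95% interval 2.11 to 3.15, adjusted p from limma 2.54e-07), 1.32 in LH cells against the negative fraction and -1.31 in FSH cells against it. Within a sort the FSH level was 11.5 to 24.2% of the LH level, beside 0.0924 to 0.703% for lhb. The genes most like it were flrt2 (r = 0.98), of an adhesion protein, LOC102079651 (0.98) and lg17h1orf226 (0.97), over the 12 male libraries and among 1557 genes. Its position is not given, because the annotation matched neither kcnmb4 nor gjd2. Of the markers of other cell types, the male table holds 1 of vessel walls, 1 of glia and 6 of neurons, and none of the macrophage markers. The vessel wall marker cdh5 was called higher in LH than in FSH cells (1.73), with 25.7 to 43.7 NR in LH libraries, 6.14 to 14.04 NR in FSH libraries and 8.97 to 26.8 NR in the negative libraries, and was not called in FSH cells against the negative fraction (-0.55, adjusted p from limma 0.181). Of the neuronal markers, the neurofilament gene nefl took the order of kcnmb4, with means of 39.2 NR in LH, 4.54 NR in FSH and 18.2 NR in negative libraries, and was called higher in LH than in FSH cells (3.1002) and lower in FSH cells than in the negative fraction (-1.90). A second neurofilament gene, nefm, was also called higher in LH than in FSH cells (1.17), whereas syt1 and the glia marker glula were called lower. By their values in FSH cells, cdh5 and nefl entered the table through LH cells alone, as kcnmb4 did, so the choice of genes favours this direction. The part of these markers in the kcnmb4 values was not tested.

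The BK channel that kcnmb4 serves was seen through 2 further genes. The pore gene kcnma1, in the male table only, had 926.4, 876.4, 926.8 and 1003.8 NR in LH libraries, 949.1, 1184.3, 1205.1 and 1373.0 NR in FSH libraries, and 471.3, 517.2, 339.1 and 480.1 NR in the negative libraries. Both gonadotrophs lay above the negative fraction and their ranges overlapped, while within a sort LH cells were below FSH cells in 4 of 4 sorts, at 73.1 to 97.6% of the FSH level. The log2 fold change of LH against FSH cells was -0.32 (adjusted p from limma 0.14, and 0.0956 with the sort as a block), and it was not called. The NR of kcnmb4 per NR of kcnma1 were 0.229 to 0.364 in LH cells, 0.0236 to 0.0542 in FSH cells and 0.217 to 0.264 in the negative fraction. The ratio, which is of reads and not of molecules, was lower in each FSH library than in any other, while those of LH and negative libraries overlapped. The gene lrrc38, which encodes an auxiliary gamma subunit of the BK channel, was on the FSH side. It had 42.3 ± 5.95 NR in male LH libraries, 215 ± 110 NR in FSH libraries and 24.7 ± 8.12 NR in the negative libraries (SD, n = 4 each), a log2 fold change of -2.19 in LH against FSH cells. Female LH libraries held 13.0 ± 4.86 NR, FSH libraries 113 ± 19.5 NR and negative libraries 16.3 ± 5.07 NR, and the log2 fold change was -3.08. Both passed the limma test, also with TMM. In both sexes lrrc38 was called higher than the negative fraction in FSH cells and not in LH cells, so the choice of genes favours this direction.

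The scaffold gene unc80 lies at LG23:21965970-22036019. In male LH cells it had 2203.4, 2407.3, 2105.5 and 1954.9 NR, in FSH cells 3121.6, 3567.7, 3153.5 and 3012.2 NR, and in the negative fraction 871.8, 1133.8, 622.8 and 891.8 NR. The 3 fractions did not overlap, and LH cells had 64.9 to 70.6% of the FSH level within a sort. The log2 fold change of LH against FSH cells was -0.57 in males (95% interval -0.97 to -0.17, adjusted p from limma 0.0181), inside the fold limit. Female LH cells had 704.7, 1118.8, 756.1 and 880.0 NR, FSH cells 1545.3, 1634.6, 2209.9 and 2010.0 NR, and the negative fraction 629.3, 672.1, 956.3 and 647.2 NR. Here LH and negative libraries overlapped, with a log2 fold change of 0.25 (95% interval -0.19 to 0.69, adjusted p 0.369), and FSH libraries lay above both. The log2 fold change of LH against FSH cells was -1.10 (SE 0.21, adjusted p 8.33e-05). This value was -0.96 without replicate 3 and, as above, -0.16 with TMM.

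The partners of unc80 in the sodium leak channel were compared with it. The tables hold nalcn, the pore, unc79, a second scaffold, and fam155a, an accessory subunit. Against the negative fraction all 4 genes were called higher in male LH and FSH cells, beside 51.2% and 75.8% of the table, and in female FSH cells, beside 69.7%, and as above nothing is read from these counts. In female LH cells none was called, beside 28.5% (0 by limma, edgeR and DESeq2, with 1 at an unadjusted limma p under 0.05). That gene was unc79, with 422 ± 104 NR in LH and 254 ± 76.9 NR in negative libraries (SD, n = 4 each), whose log2 fold change of 0.74 had an adjusted p from limma of 0.0176 and stayed inside the fold limit. The pore gene nalcn had 656 ± 65.2 NR in male LH libraries, 1071 ± 76.6 NR in FSH libraries and 262 ± 61.5 NR in the negative libraries (SD, n = 4 each), and in females 331 ± 67.0 NR in LH, 607 ± 64.9 NR in FSH and 249 ± 58.6 NR in negative libraries. In LH against FSH cells no gene of the complex was called in males, beside 25.6% of the table called lower. This was 0 by each of the 3 tools, with 3 genes at an unadjusted limma p under 0.05. Those 3, unc80, nalcn (-0.71, adjusted p from limma 0.00671) and fam155a (-0.95, adjusted p 0.000884), also passed the adjusted limit there and missed the fold limit alone. In females 2 of the 4, unc80 and fam155a (-1.14), were called lower, beside 47.6% of the table. All 4 had an unadjusted limma p under 0.05 there. The share of the whole table that passes a p limit without the fold limit is not given here, so nothing is read from the counts by p alone. With TMM none was called in either sex, beside 14.8% called lower in males and 15.3% in females. Over the 12 libraries of a sex unc80 correlated with nalcn at r = 0.98 and 0.97, with unc79 at 0.97 and 0.95 and with fam155a at 0.95 and 0.93 (males and females). By the rule for likeness nalcn was among the 3 genes most like unc80, with myo5aa, a myosin gene of vesicle transport (0.98 and 0.98), and sgsm1 (0.99 and 0.97). The summed level of 6 listed neuronal markers, which endocrine cells also express, was 1836 to 2003 NR in male LH libraries, 2834 to 4794 NR in FSH libraries and 602 to 1027 NR in the negative libraries. The largest part of that sum was syt1, with means of 988 NR in LH, 2384 NR in FSH and 412 NR in negative libraries. Of the 6 markers 1, syt1, was called lower in LH than in FSH cells in males, beside 25.6% of the table. Another 2, nefl and nefm, were called higher, beside 14.9%, and 3 were not called. The female table holds 4 of them, with sums of 490 to 938 NR in LH, 1638 to 2320 NR in FSH and 495 to 692 NR in negative libraries. In females 2 of the 4 were called lower in LH than in FSH cells, beside 47.6% of the table. Another 1 was called higher, beside 24.5%, and 1 was not called. Nothing is read from these counts, and the part of these markers in the unc80 values was not tested.

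**Figure D4:**
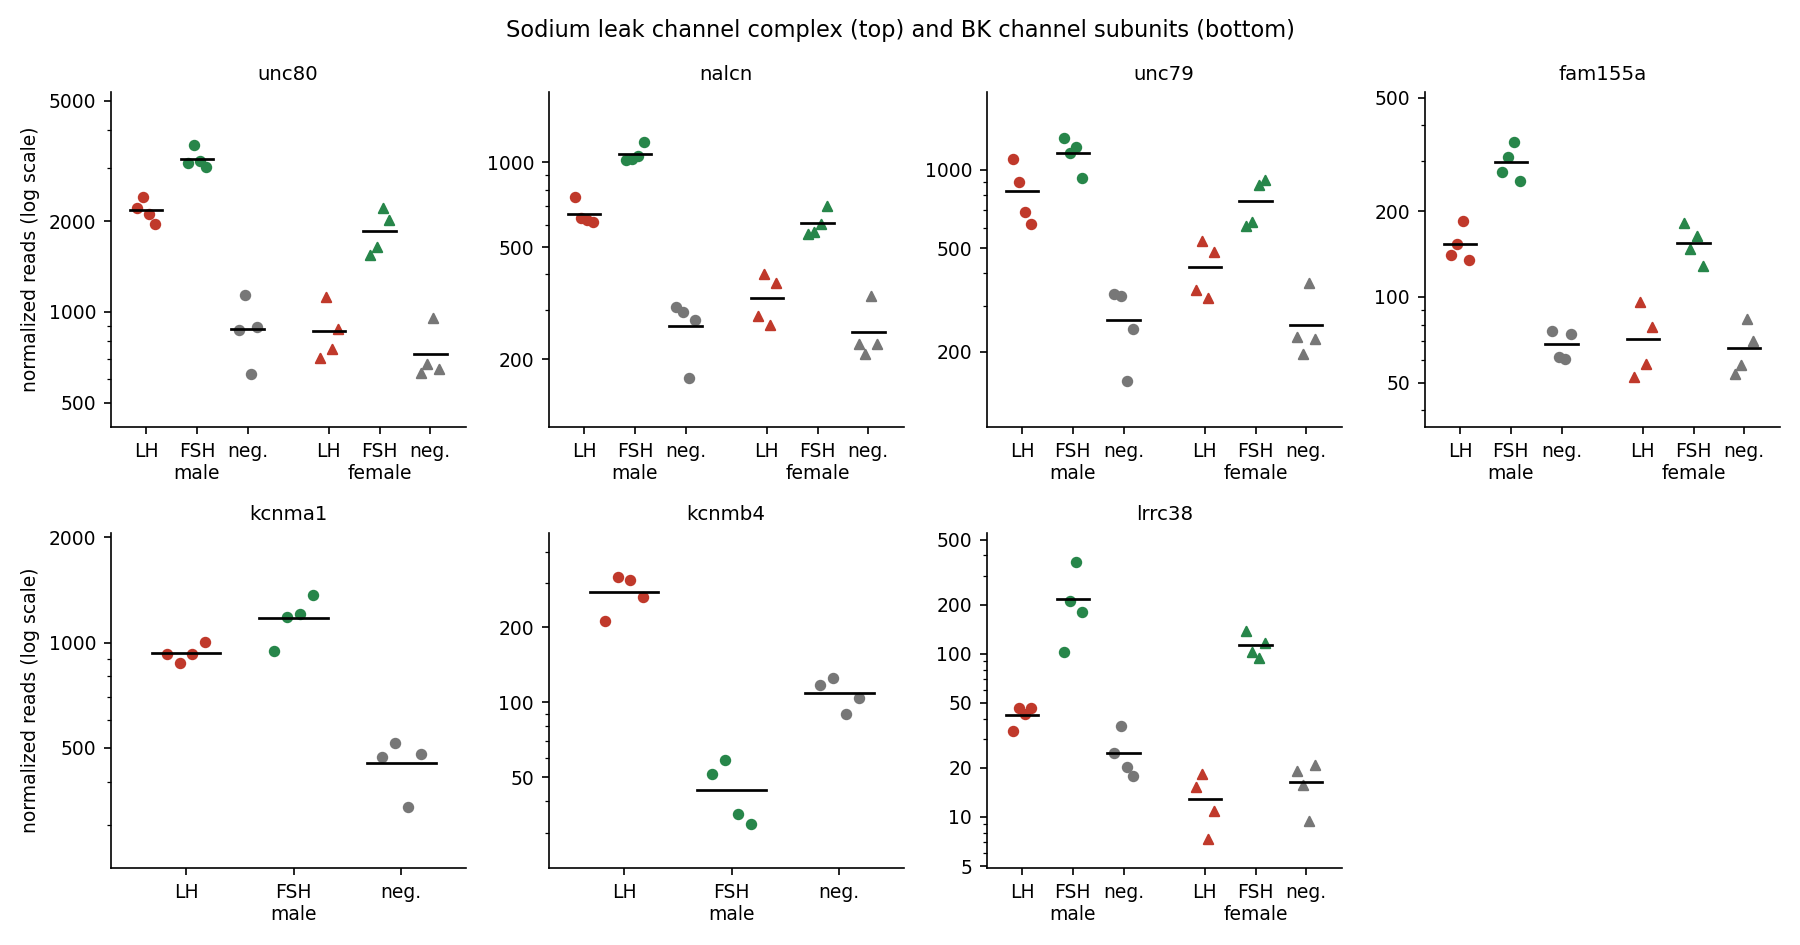
Normalized reads (log scale) in each library for the sodium leak channel genes unc80, nalcn, unc79 and fam155a (top) and the BK channel genes kcnma1, kcnmb4 and lrrc38 (bottom), by fraction and sex, with a bar at the mean of 4 libraries. The 4 leak channel genes have their highest mean in the FSH libraries of each sex, while kcnmb4 is lowest and lrrc38 highest in the FSH libraries and kcnma1 overlaps between LH and FSH libraries.

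Gap junction and pannexin genes were searched by symbol, which cannot find the 549 male and 495 female genes without one. The connexin gene gjd2 was the one found in the tables. It had 297.5, 616.6, 656.0 and 552.1 NR in male LH libraries, 413.7, 534.2, 762.9 and 991.7 NR in FSH libraries, and 167.1, 120.6, 112.4 and 169.4 NR in the negative libraries. Both gonadotrophs lay above the negative fraction without overlap, by a log2 fold change of 1.85 in LH cells and 2.18 in FSH cells. In females it had 287.6, 609.9, 278.8 and 300.1 NR in LH libraries, 247.2, 320.4, 326.7 and 543.3 NR in FSH libraries, and 206.4, 105.0, 207.0 and 185.7 NR in the negative libraries. Both were again separate from the negative fraction, by a log2 fold change of 1.03 in LH cells and 1.01 in FSH cells.

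LH and FSH cells were not told apart by gjd2. Their log2 difference was -0.33 in males (95% interval -0.95 to 0.29, adjusted p from limma 0.328) and 0.02 in females (-0.58 to 0.61, adjusted p 0.96), and within a sort the LH level was 55.7 to 115% of the FSH level in males and 55.2 to 190% in females. The intervals leave room for a difference in either direction, and with TMM the values were 0.07 in males and 0.95 in females (adjusted p 0.0057, inside the fold limit). The female values against the negative fraction were close to the fold limit and rest on single libraries. For LH cells the log2 fold change was 0.76 without LH replicate 2 and 0.80 without negative replicate 2, and 0.53 (adjusted p 0.127) without replicate 2 in all fractions. Among the female LH libraries, replicate 2 had the lowest sum of 3 macrophage markers (csf1r, c1qb and marco). It held 178 NR, beside 628 to 856 NR in the others. The same library had the most of the vessel wall marker kdrl (178 NR beside 26.9 to 78.3 NR). Its summed neuronal markers were also the highest (938 NR beside 490 to 676 NR). The part of these markers in the gjd2 values was not tested. For FSH cells leaving out libraries gave 0.78 to 1.27, below the fold limit without negative replicate 2 (0.78), without FSH replicate 4 (0.80), and without replicate 2 (0.82) or replicate 4 (0.84) in all fractions. The gene most like gjd2 was cacna1ea, of a voltage-gated calcium channel, at r = 0.94 in males and 0.93 in females, followed by itih5 (0.89 and 0.90) and scg3 (0.90 and 0.87), a secretory granule gene.

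Sex was compared through the fold changes made within each table, for the 5 genes in both. In LH cells against the negative fraction 2 of 5 differed (limma interaction, BH-adjusted p below 0.05), beside 12.8% of 1309 genes. For unc80 the fold change was 1.33 in males and 0.25 in females, a difference of 1.08 (SE 0.29, adjusted p 0.0163), and for LOC102076326 it was 1.87 and 0.58, a difference of 1.29 (SE 0.40, adjusted p 0.0338). The differences of the other 3 genes were positive as well, from 0.69 to 0.99, with adjusted p from 0.171 to 0.216. The median over all 1309 genes was 0.53, and once it was subtracted both calls were lost (0.55 for unc80 and 0.76 for LOC102076326). They were also lost without replicate 1 (1.04 and 1.31) and without replicate 3 (0.74 and 1.20), and that of LOC102076326 without replicate 2 (1.14). Female LH libraries held 178 to 856 NR of the 3 macrophage markers, against 54.9 to 131 NR in the female negative fraction and 0 to 2.40 NR in female FSH libraries, and csf1r was at 0 in all female FSH libraries. As no listed macrophage marker was found by symbol in the male table, their part in the sex difference was not tested.

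In FSH cells against the negative fraction none of 5 genes differed between the sexes by limma, beside 1.38% of genes, and 2 had an unadjusted p under 0.05: LOC102076326 (difference 1.35, adjusted p 0.0826) and gjd2 (1.17, adjusted p 0.15). LOC102076326 passed with the sort as a block in the fit (adjusted p 0.0375) and without replicate 1 (difference 1.62, adjusted p 0.0436). In LH against FSH cells none of 5 differed, beside 0.306% of genes, and none had an unadjusted p under 0.05. The intervals were wide, for example -0.88 to 0.77 for LOC102076326 and -0.65 to 0.72 for kcnh6a.

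The 6 genes were set beside the other ion channel genes of the tables, found by gene symbol. Without the 6 genes, the lists held 63 genes in males and 32 in females. In LH against FSH cells 12 of the 63 male genes were called higher (19.0%, beside 14.9% of the table) and 17 lower (27.0%, beside 25.6%), with a median log2 fold change of -0.49 against -0.54 over all genes. In females 4 of the 32 were called higher (12.5%, beside 24.5%) and 20 lower (62.5%, beside 47.6%), with a median of -1.16 against -0.96. With TMM 13 male genes were higher (20.6%, beside 18.2%) and 8 lower (12.7%, beside 14.8%), and 5 female genes were higher (15.6%, beside 27.6%) and 7 lower (21.9%, beside 15.3%). The male shares were near those of the table. The female share called higher was below that of the table and the share called lower above it under both scalings, and this difference was not tested.

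Single channel genes were called in both directions, and of these only genes with a mean of at least 50 NR in the higher fraction are named. The voltage-gated, the calcium- and sodium-activated, and the inward rectifier and two-pore potassium channel lists held 12, 6 and 9 male genes (kcnh6a and kcnmb4 included). Of these 3, 1 and 3 were called higher in LH cells, beside 14.9% of the table, and 4, 3 and 1 lower, beside 25.6%. Of 4, 3 and 4 female genes 0, 0 and 1 were higher, beside 24.5%, and 4, 3 and 2 lower, beside 47.6%. On the LH side were cacna2d3, of an auxiliary calcium channel subunit, with 152 ± 72.7 NR in male LH libraries and 2.99 ± 3.03 NR in FSH libraries, and 54.7 ± 29.6 NR in LH and 1.34 ± 1.03 NR in FSH libraries of females (SD, n = 4 each). In the male table alone kcnc2, of a fast delayed rectifier, had 244 ± 26.1 NR in LH and 102 ± 15.8 NR in FSH libraries, cacna2d4a 88.1 ± 33.3 NR in LH and 13.96 ± 7.43 NR in FSH cells, and scn4ab, of a sodium channel, 129 ± 82.5 NR in LH and 2.08 ± 1.33 NR in FSH cells. In the female table alone trpv1 had 76.3 ± 35.2 NR in LH and 0.176 ± 0.351 NR in FSH libraries. Each of these was called higher in LH cells under both scalings. The FSH levels of cacna2d3 and scn4ab are within the range of the detection limit, and that of trpv1 is below it. As above, a gene that entered through 1 cell type alone is favoured in the direction of that type, here and on the FSH side.

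On the FSH side, beside kcnab1 and lrrc38, was cacna2d1, a paralog of cacna2d3, with 18.2 ± 9.10 NR in male LH libraries and 287 ± 146 NR in FSH libraries, and 10.8 ± 1.74 NR in LH and 196 ± 38.8 NR in FSH libraries of females. The sodium-activated potassium channel gene kcnt1a followed with a log2 fold change of -2.02 in males and -1.97 in females, and the low-threshold calcium channel gene cacna1ia with -2.12 and -2.71. In 1 table each were ano2b (-2.96, males), of a calcium-activated chloride channel, and kcnk4a (-4.33, females), of a two-pore potassium channel. All of these were called lower in LH cells under both scalings. The calls of cacnb1 (-1.19 in males and -1.58 in females), cacna1d (-1.10 and -1.15) and trpc7b (-1.04 and -1.36) were lost with TMM in both sexes. The paralog of kcnt1a, kcnt1b, is in the male table alone and was not called (-0.12, adjusted p from limma 0.656).

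**Figure D5:**
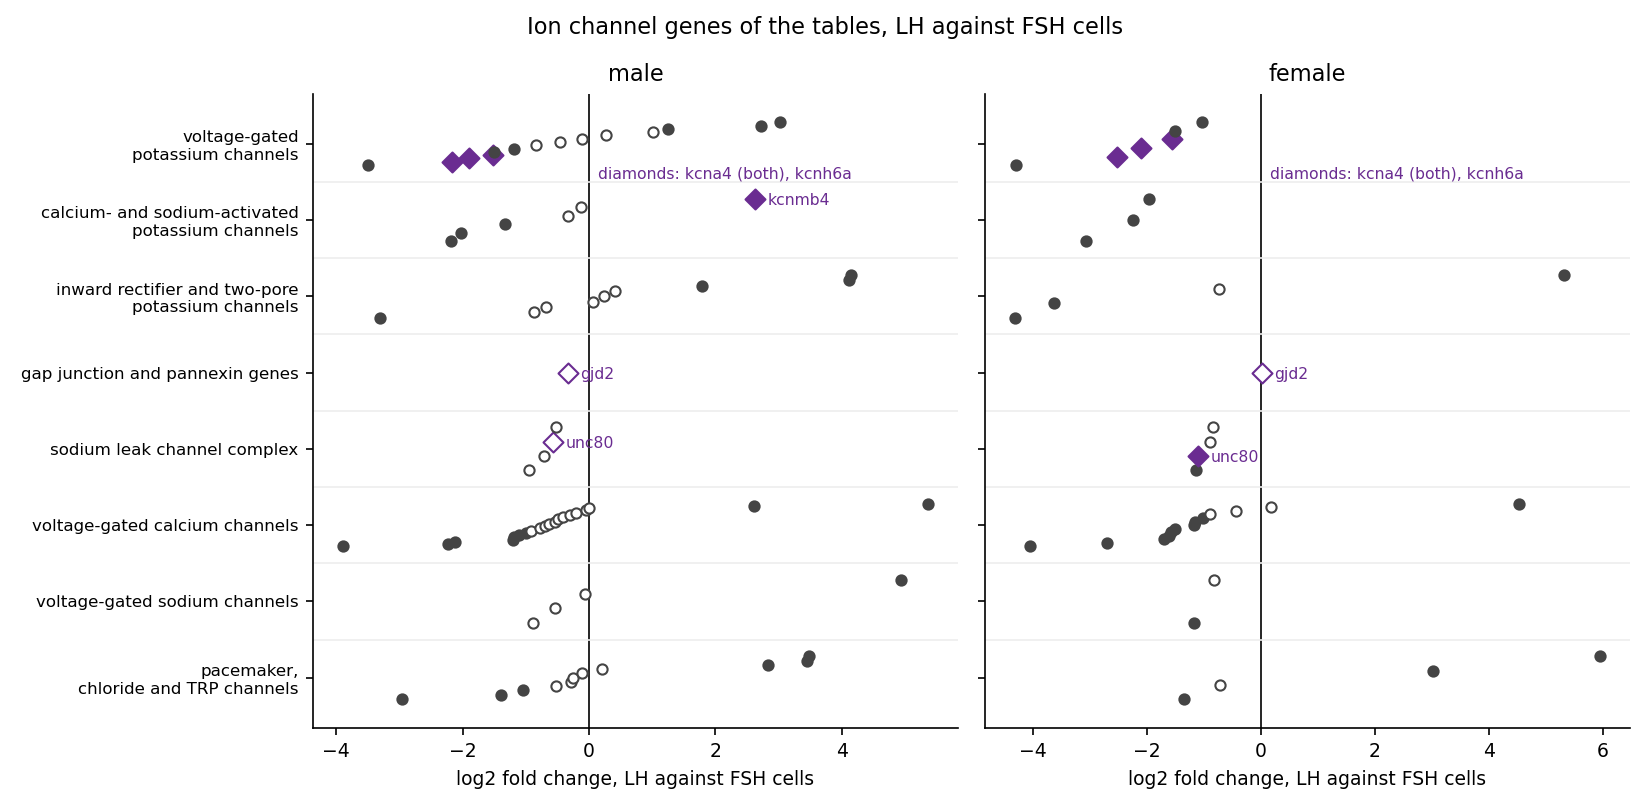
Log2 fold changes of LH against FSH cells for the ion channel genes of the male (left) and female (right) tables, by list, with filled symbols for called genes and diamonds for the 6 genes described here. In males kcnmb4 lies on the LH side, both kcna4 models and kcnh6a on the FSH side, and gjd2 near 0, where it also lies in females.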

How the data were processed

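Trim Galore was used by the authors to trim reads, STAR to map them (O_niloticus_UMD_NMBU), and uniquely mapped reads were assigned to genes. The signal values they deposited are normalized reads (NR), read counts divided by a DESeq2 size factor for each library, in 1 table per sex. A gene is listed where the authors' log2 value against the negative libraries passed 1 in either cell type. The deposited fold changes and p-values of LH and FSH against negative libraries were not used. All NR gave whole reads (tolerance 0.01), with size factors of 0.416 to 2.45. In the male table each gene name stands 1 line below its values. Names were moved by 1 line, after which LH-to-FSH log2 ratios correlated across 1309 genes with the female ones at 0.953, against 0.123 before. Genes are not independent replicates. The annotation matched 2013 male and 1584 female genes.

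The log2(NR + 1) values of a sex, 3 fractions of 4 libraries, went into a limma fit with a mean-variance trend (version 3.58.1, R 4.3.3) and BH adjustment over all genes of the table. Fold changes are on this scale, which understates those of low genes. The sex difference is the interaction over 1309 genes, male minus female. Alternatives were other pseudocounts (5, 0.5), a mean of at least 20 NR, edgeR 4.0.16 and DESeq2 1.42.0 on recovered reads, a replicate block, 2 fractions only, TMM, centring, and leaving out libraries. Each sort gave all fractions of 1 pool. Values within a sort take libraries of a sex with the same number as 1 sort, which their titles do not state. Their deviations from group means correlated at 0.154 to 0.503 (LH and FSH), 0.112 to 0.416 (LH and negative) and 0.00803 to 0.322 (FSH and negative) in males, and at 0.00106 to 0.185, -0.28 to 0.146 and -0.0515 to 0.103 in females.

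The 6 genes and the channel and marker lists were chosen with earlier results of these data known. Text names all 6 genes, the 3 genes most like each (Pearson, the smaller of the male and female r, mean of at least 50 NR), and listed channel genes called alike in LH against FSH cells in every table that holds them (mean of at least 50 NR in the higher fraction, at most 4 a direction and list). A listed gene that met this rule is not reported here. Figures were drawn with matplotlib 3.10.9.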

Additional observations from a re-analysis of the deposited data

Results flagged for a closer look

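Of 33 groups of 4 libraries, 3 held a library whose gap to its nearest neighbour exceeded Dixon's limit on the share of the group's range, which chance passes in about 1 of 20 groups. LOC100694964 (kcna4) had 20.0 NR in female LH replicate 3. In female LH replicate 2 gjd2 had 610 NR, one of the libraries on which its female LH call rests. In female negative replicate 3 unc80 had 956 NR.

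The fold change of LH cells against the negative fraction was larger in males than in females for unc80 (difference 1.08 on the log2 scale, adjusted p from limma 0.0163) and for LOC102076326 (difference 1.29, adjusted p 0.0338), by a test of the interaction. Both calls were lost once the median difference of all genes was subtracted, and without replicate 1 or without replicate 3.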

How the results depend on the processing

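The number of the 6 genes called in the male comparisons (6, 6 and 4) was the same under every alternative run, edgeR and DESeq2 on recovered reads included. In females the number called in LH cells against the negative fraction, 1, ran from 0 to 1 over fits that left out libraries, that in LH against FSH cells, 4, from 3 to 4, and 2 with TMM. For the sex difference in LH cells the number, 2, was 0 once centred on the median of all genes and 0 to 2 over fits that left out a replicate. Over all 1309 genes that difference was called in 167 genes, in 11 once centred, and in 69, 106 and 8 without replicate 1, 2 and 3. For FSH cells the number, 0, was 1 with the replicate block and 0 to 1 over fits that left out a replicate, and the calls over all genes, 18, were 40 with the replicate block, 6 once centred and 11, 3 and 7 without replicate 2, 3 and 4. For LH against FSH cells the calls over all genes, 4, were 2 without replicate 2 or 3. Among the 6 genes the replicate block changed 1 call, that of LOC102076326 in FSH cells, and it moved the LH sex difference over all genes to 244 calls. With TMM the male value of gjd2 in LH against FSH cells turned to 0.0652, and calls over the female table fell to 793, against 1333. Leaving out libraries, its female value ran from -0.29 to 0.31. Among sex differences in LH against FSH cells, none of them called, that of kcnh6a turned to -0.24 once centred and ran from -0.0937 to 0.2505 over fits without a replicate, and that of LOC102076326 ran from -0.31 to 0.19. In FSH cells that of LOC100694964 ran from -0.0916 to 0.6544. With a pseudocount of 5 the female fold change of gjd2 in FSH cells was 0.997, below the limit. The cause of these changes was not tested. The depth of the female negative libraries, 69091 to 135385 reads on the tables' genes, limits LOC100694964 most.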
